A study of Mus musculus with 24 samples.

Results

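The 10 genes described here belong to the core circadian clock of mouse liver: the activators *Arntl*, *Clock* and *Npas2*, the repressors *Per1*, *Per2*, *Per3* and *Cry1*, the nuclear receptors *Nr1d1* and *Nr1d2*, and the output factor *Dbp*. They were chosen by symbol, and each was read from the probe set with the highest mean over all arrays. Of the 10 genes, 8 had a probe set of their own among the 18820 genes so measured. *Nr1d1* and *Dbp* were on the array only through probe sets that the annotation lists for a neighbouring gene as well, so no level could be given to either gene alone.

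The molecular clock is a loop of transcription. ARNTL (also called BMAL1) pairs with CLOCK or NPAS2 at E-box elements and drives the Per, Cry, Nr1d and Dbp genes; PER and CRY proteins then block the pair, and the NR1D proteins (REV-ERB alpha and beta) repress Arntl, Npas2 and Cry1. In mouse liver the RNAs of Arntl and Npas2 are known to peak at about the opposite time of day from those of Per3, Nr1d1 and Dbp, and the loop times bile acid synthesis and other metabolic programmes, so that a single time of sampling catches some members high and others low.

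Livers of 24 male C57BL/6 mice, 9 to 12 weeks old and fed chow, were measured on 1 array per mouse, in 4 groups of 6. FXR-/- mice (FXRKO) received obeticholic acid (OCA, INT-747), a bile acid derivative that activates the nuclear receptor FXR, or vehicle; wild-type (WT) mice received the same OCA or the same vehicle. OCA was given by daily oral gavage at 10 mg/kg for 7 days, and the vehicle given to both control groups, which also carried the OCA, was 1% methyl cellulose. The labels name no cell type or promoter that would restrict the FXR deletion, they put all mice on a light-dark cycle, and the sources used here do not state the hour at which livers were taken. The comparisons ask what OCA does in liver with and without its receptor, and what loss of the receptor does with and without OCA.

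The array names carry a code number (5, 7 or 9) whose meaning the sources used here do not state, and it does not run evenly across the groups. All 6 FXRKO OCA arrays and 2 FXRKO vehicle arrays (replicates 1 and 2) had number 9, all 6 WT OCA arrays and 2 WT vehicle arrays (replicates 5 and 6) had number 5, and the other 4 arrays of each vehicle group had number 7. FXRKO and WT under OCA were therefore compared entirely across 2 numbers, and the number and the genotype cannot be told apart there except through the vehicle arrays. The code number also ran with the mouse number: mice 1 to 8 had number 5, mice 9 to 34 number 7 and mice 35 to 44 number 9. With the hour of sampling not stated, a difference in hour between these runs of mice cannot be told apart from group differences. It was not tested. WT vehicle replicate 6 stood apart: 532 of its genes differed by over 2-fold from its group's other 5 arrays (by mean), against 2 to 90 for every other array, and its mean log2 signal over 4 acute phase genes was 12.4 against 8.78 to 9.32 in those 5. The signal of *Nr1h4*, which encodes FXR, was 9.80 to 10.05 in FXRKO OCA livers, 9.88 to 10.13 in FXRKO vehicle livers, 9.85 to 10.28 in WT OCA livers and 9.96 to 10.30 in WT vehicle livers, so it did not separate the genotypes; a probe set outside the deleted part would not. *Nr0b2*, a direct FXR target, did separate them, at 3.40 to 4.82 over both FXRKO groups and 5.87 to 8.62 over both WT groups. The 5 hepatocyte markers averaged 12.5 to 12.9 on the log2 scale in every array.

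Of the activators, *Arntl* (probe set 10556463) gave log2 signals of 4.74 at the lowest, 5.41 at the median and 6.05 at the highest in FXRKO OCA livers, and 4.27, 4.68 and 4.98 in FXRKO vehicle livers. WT OCA livers read 4.23, 4.59 and 4.91, and WT vehicle livers 4.25, 4.91 and 6.40. The groups overlapped, but 4 of 6 FXRKO OCA livers lay above every WT OCA liver, and the highest reading of all 24 came from WT vehicle replicate 5, followed in that group by replicate 6 at 5.52. *Npas2* (10345675), a partner of ARNTL that can stand in for CLOCK, read 4.38, 5.20 and 5.52 in FXRKO OCA livers and 4.08, 4.17 and 4.54 in FXRKO vehicle livers. It read 3.70, 3.78 and 4.34 in WT OCA livers and 3.55, 3.80 and 5.61 in WT vehicle livers. Every FXRKO OCA liver was above every WT OCA liver, whereas WT vehicle replicate 5 alone took the vehicle group above the FXRKO range. *Clock* (10530733) varied less, at 8.68, 9.05 and 9.21 in FXRKO OCA livers, 8.50, 8.73 and 8.84 in FXRKO vehicle livers, 8.42, 8.64 and 9.11 in WT OCA livers and 8.33, 8.85 and 9.35 in WT vehicle livers, and all 4 groups overlapped.

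**Figure D1:**
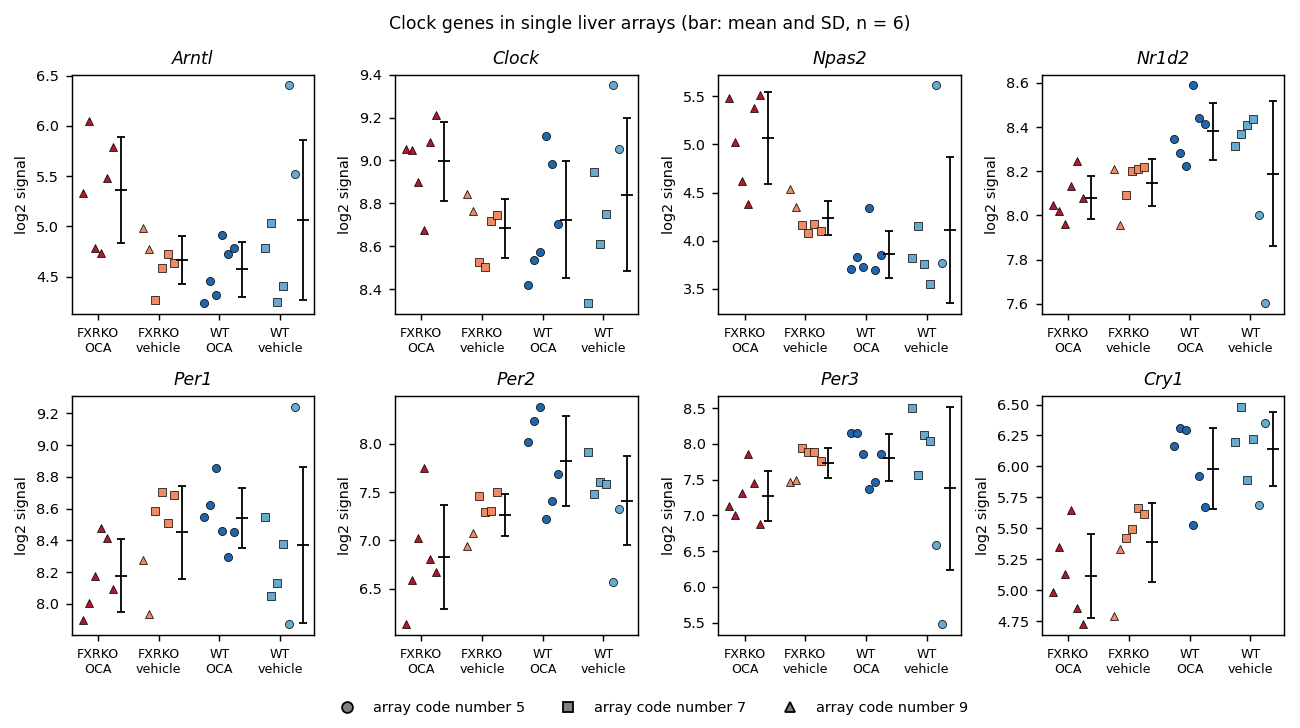
Log2 signal of the 8 measured clock genes in each of 24 liver arrays. Points are single mice, colour gives the group (FXRKO OCA, FXRKO vehicle, WT OCA, WT vehicle from left to right), shape gives the array code number, and the bar beside each group is its mean and SD (n = 6). The widest group is WT vehicle for *Per3*, with points from 5.47 to 8.49, and *Cry1* sits lower in both FXRKO groups than in both WT groups by mean.

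The promoter window of *Arntl*, 250 bases before to 50 after an annotated start (RefSeq, GRCm38.p6), is shown because it was the only member window in which a script found TAGGTCA, the site bound by ROR and REV-ERB proteins. The site is in capitals and lies after the annotated start, and the window is chr7:113207261-113207560 on the plus strand. The other *Arntl* window, chr7:113207215-113207514, did not hold these letters. Both strands of each window were searched, and 2.61% of 32851 such windows of all genes held the same letters.
Arntl: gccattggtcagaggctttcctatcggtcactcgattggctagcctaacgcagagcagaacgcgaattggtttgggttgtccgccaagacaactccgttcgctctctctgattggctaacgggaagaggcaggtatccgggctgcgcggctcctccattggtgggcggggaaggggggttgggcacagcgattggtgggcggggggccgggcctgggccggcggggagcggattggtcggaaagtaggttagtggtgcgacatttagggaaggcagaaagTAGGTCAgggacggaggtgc
Windows of 9 of the 10 genes (13 in all) were found in the table, with none for Per2. A match describes the letters of the window and not binding.

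The repressors ran mostly the other way. *Per2* (10356601), whose protein joins CRY to shut off the activators, read 6.13 at the lowest, 6.74 at the median and 7.75 at the highest in FXRKO OCA livers, and 6.94, 7.30 and 7.50 in FXRKO vehicle livers. It read 7.22, 7.85 and 8.38 in WT OCA livers and 6.57, 7.53 and 7.91 in WT vehicle livers. Of the 6 FXRKO OCA livers, 5 were below every WT OCA liver, and the lowest WT vehicle liver was replicate 5. *Cry1* (10371400), a repressor of the ARNTL and CLOCK pair, read 4.72, 5.06 and 5.65 in FXRKO OCA livers and 4.79, 5.46 and 5.67 in FXRKO vehicle livers, against 5.53, 6.04 and 6.31 in WT OCA livers and 5.69, 6.21 and 6.48 in WT vehicle livers. Under vehicle the 2 genotypes did not overlap, and under OCA 1 FXRKO liver reached into the WT range.

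*Per3* (10518781), a period gene not needed for the loop to run, read 6.87, 7.22 and 7.85 in FXRKO OCA livers, 7.46, 7.82 and 7.94 in FXRKO vehicle livers, 7.36, 7.86 and 8.16 in WT OCA livers and 5.47, 7.80 and 8.49 in WT vehicle livers. The low end of the last group was replicate 6 at 5.47 and replicate 5 at 6.59, while its other 4 livers read 7.56 to 8.49. *Per1* (10377439), the period gene that also answers quickly to outside signals, read 7.90, 8.13 and 8.48 in FXRKO OCA livers, 7.94, 8.55 and 8.70 in FXRKO vehicle livers, 8.30, 8.50 and 8.86 in WT OCA livers and 7.87, 8.25 and 9.24 in WT vehicle livers. Here the WT vehicle extremes fell on the same 2 livers in opposite directions, replicate 5 lowest and replicate 6 highest.

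Promoter windows of the repressors are shown because these hold the 2 elements by which the loop is known to drive them. The E-box CACGTG, which reads the same on both strands, was found in *Cry1* (chr10:85185005-85185304, minus strand) and in 1 of 2 *Per1* windows (chr11:69098699-69098998, plus strand), and in 7.15% of all windows. The D-box TTATGTAA, bound by DBP and its relatives, was found 2 times in *Per3* (chr4:151044616-151044915, minus strand), and in 0.938% of all windows. Capitals mark these elements, each sequence runs with the gene, and no member window held more than 1 kind of motif.
Cry1: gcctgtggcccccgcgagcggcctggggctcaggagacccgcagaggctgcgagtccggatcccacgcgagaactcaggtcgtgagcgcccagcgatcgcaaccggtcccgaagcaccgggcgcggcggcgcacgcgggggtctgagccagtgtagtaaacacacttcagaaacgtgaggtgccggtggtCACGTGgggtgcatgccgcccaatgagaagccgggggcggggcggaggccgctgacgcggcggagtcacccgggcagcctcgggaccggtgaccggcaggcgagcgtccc
Per1: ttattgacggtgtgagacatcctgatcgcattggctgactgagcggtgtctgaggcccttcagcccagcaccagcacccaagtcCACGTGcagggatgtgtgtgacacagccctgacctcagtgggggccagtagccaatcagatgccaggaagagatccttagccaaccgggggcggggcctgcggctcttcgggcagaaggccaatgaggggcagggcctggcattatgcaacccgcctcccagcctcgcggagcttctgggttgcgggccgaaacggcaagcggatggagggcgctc
Per3: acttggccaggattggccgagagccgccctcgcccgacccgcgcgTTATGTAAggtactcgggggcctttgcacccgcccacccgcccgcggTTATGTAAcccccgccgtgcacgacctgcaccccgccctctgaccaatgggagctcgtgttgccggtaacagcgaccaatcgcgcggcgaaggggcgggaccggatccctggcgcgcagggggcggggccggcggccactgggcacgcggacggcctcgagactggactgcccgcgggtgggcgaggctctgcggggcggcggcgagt
The canonical FXR element, an inverted repeat of AGGTCA with 1 base between, was in no member window and in 0.00913% of all windows.

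*Nr1d2* (10417734), which encodes REV-ERB beta, was the steadiest gene of the set. It read 7.96, 8.06 and 8.24 in FXRKO OCA livers, 7.96, 8.21 and 8.22 in FXRKO vehicle livers, 8.22, 8.38 and 8.59 in WT OCA livers and 7.60, 8.34 and 8.44 in WT vehicle livers. The low end of the WT vehicle group was again replicate 6 at 7.60 and replicate 5 at 8.00, and its other 4 livers read 8.31 to 8.44. The probe set listed for both Nr1d1 and Thra, the thyroid hormone receptor gene on the opposite strand, that had the higher signal (10390691) averaged 10.80 ± 0.42 in FXRKO OCA livers, 10.39 ± 0.16 in FXRKO vehicle livers, 10.53 ± 0.60 in WT OCA livers and 10.47 ± 0.48 in WT vehicle livers (SD, n = 6 each). The probe set listed for both Sphk2, a sphingosine kinase gene, and Dbp (10553092) averaged 10.37 ± 0.22 in FXRKO OCA livers, 10.61 ± 0.13 in FXRKO vehicle livers, 10.66 ± 0.22 in WT OCA livers and 10.29 ± 0.76 in WT vehicle livers, and its lowest readings, 8.87 and 9.98, were WT vehicle replicates 6 and 5. None of these shared probe sets was called in any comparison in a limma fit to all 35556 probe sets, where 21.4% were called for FXRKO against WT under OCA, 18.5% for FXRKO against WT under vehicle, 0.0141% for OCA in FXRKO livers, 0.00562% for OCA in WT livers and 0% for the difference of the OCA effects.

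Under OCA, FXRKO livers had higher RNA of 2 activators and lower RNA of 2 repressors and of *Nr1d2* than WT livers. With limma and Benjamini-Hochberg adjustment over all genes, 5 of 8 members passed an adjusted p of 0.05, 2 higher and 3 lower, where 30.7% of all genes passed (17.4% higher and 13.3% lower). *Npas2* averaged 5.07 ± 0.48 in FXRKO OCA livers and 3.86 ± 0.24 in WT OCA livers (SD, n = 6 each), a log2 change of 1.21 ± 0.25 (SE, adjusted p = 0.00048), or 2.31-fold. *Arntl* rose by 0.79 ± 0.27 (adjusted p = 0.027), or 1.73-fold. Both encode activators, and the other measured activator, *Clock*, was not called. *Npas2* and *Arntl* were dimmer than the median gene, with means over all arrays of 4.32 and 4.91 against a median level of 5.28. Dim genes may sit near background, so the size of these 2 fold changes is uncertain.

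Of the genes that fell in that comparison, *Per2* averaged 6.83 ± 0.54 in FXRKO OCA livers and 7.82 ± 0.47 in WT OCA livers (SD, n = 6 each), a log2 change of -0.99 ± 0.23 (SE, limma adjusted p = 0.0015), or 1.99-fold lower. *Cry1* fell by 0.87 ± 0.17 (adjusted p = 0.00030), or 1.82-fold, and *Nr1d2* by 0.30 ± 0.11 (adjusted p = 0.032), or 1.23-fold. *Per1* had a log2 change of -0.36 ± 0.17 and missed the threshold (adjusted p = 0.118); *Per3*, at -0.54 with a 95% interval of -1.22 to 0.15, and *Clock*, at 0.27 with an interval of -0.01 to 0.56, also missed it. Across the members the median change was -0.33, beside -0.02 for all genes. The 3 activators all had positive changes (median 0.79), and the 5 measured genes that the activators drive, *Per1*, *Per2*, *Per3*, *Cry1* and *Nr1d2*, all had negative ones (-0.99 to -0.30).

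This comparison sets number 9 arrays (mice 39 to 44) against number 5 arrays (mice 1 to 6), with the hour of sampling not stated. With the code number as a block, which borrows the link from the vehicle arrays, 4 members were called, 3 of them among the 5 above, where 12.4% of all genes were called. *Arntl* then changed by 1.81 ± 0.48 (limma adjusted p = 0.013), *Npas2* by 1.76 ± 0.53 (0.030), *Nr1d2* by -0.78 ± 0.17 (0.0034) and *Per3* by -2.17 ± 0.44 (0.0017). *Per2*, at -1.31 ± 0.50 (adjusted p = 0.091), and *Cry1*, at -0.56 ± 0.38 (adjusted p = 0.39), were no longer called, and *Per1* turned to 0.43 ± 0.37. On the WT side the link in these blocked values runs through WT vehicle replicates 5 and 6, the only vehicle arrays with number 5. Without replicate 6 it ran through replicate 5 alone. The blocked changes were then 2.25 for *Arntl*, 2.68 for *Npas2*, -0.58 for *Nr1d2* and -1.61 for *Per3*. The calls of *Arntl* and *Nr1d2* in the fit to all arrays also hung on single livers: without FXRKO OCA replicate 2 the adjusted p of *Arntl* was 0.078 and that of *Nr1d2* 0.058, and 3 members were called.

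Leaving out any 1 of 4 livers (FXRKO OCA replicates 2 and 6, WT OCA replicates 1 and 3) ended the call of *Arntl*, with changes of 0.65, 0.70, 0.72 and 0.74 in that order. For *Nr1d2*, 7 of the 12 such fits ended it (FXRKO OCA replicates 1, 2, 3 and 6 and WT OCA replicates 4, 5 and 6), with changes between -0.30 and -0.26. *Npas2*, *Per2* and *Cry1* kept their calls in all 12. Without WT vehicle replicate 6, which enters only through the shared estimate of spread, 6 members were called, *Per1* (adjusted p = 0.038) being the addition, where 33.8% of all genes were called.

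**Figure D2:**
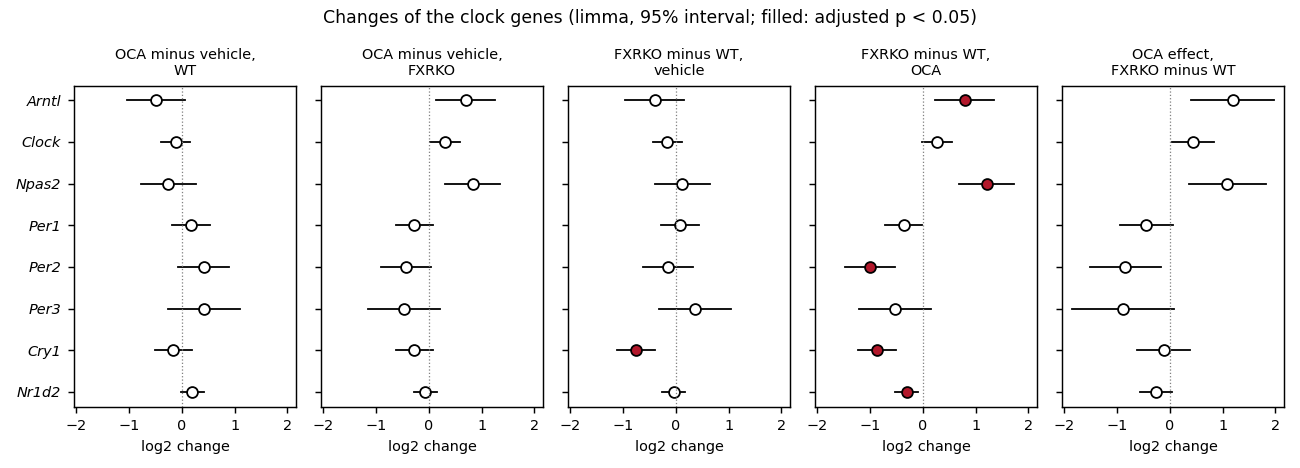
Log2 changes of the 8 measured clock genes in 5 comparisons, with 95% intervals from limma; filled points passed an adjusted p of 0.05 over 18820 genes. Filled points are *Arntl*, *Npas2*, *Per2*, *Cry1* and *Nr1d2* for FXRKO minus WT under OCA, and *Cry1* for FXRKO minus WT under vehicle.

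Under vehicle, loss of FXR went with lower *Cry1* and no other called change. *Cry1* averaged 5.39 ± 0.32 in FXRKO vehicle livers and 6.14 ± 0.30 in WT vehicle livers (SD, n = 6 each), a log2 change of -0.75 ± 0.17 (SE, limma adjusted p = 0.0015), or 1.69-fold lower. This was 1 of 8 members, where 27.5% of all genes passed (15.4% higher and 12.1% lower), so the share of members called was below that of all genes. *Cry1* kept the direction and the call with the code number as a block (-0.65 ± 0.20, adjusted p = 0.020, where 22.7% of all genes were called) and within number 7 alone, 4 livers a genotype (-0.65 ± 0.12, adjusted p = 0.0026).

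Within number 7, *Per1* was called as well, 0.35 ± 0.11 higher in FXRKO livers (limma adjusted p = 0.045), where 24.1% of all genes were called. Over all arrays *Per1* averaged 8.45 ± 0.29 in FXRKO vehicle livers and 8.37 ± 0.49 in WT vehicle livers (SD, n = 6 each). None of the other members passed. The activators averaged 4.66 (*Arntl*), 8.68 (*Clock*) and 4.24 (*Npas2*) in FXRKO vehicle livers, against 5.06, 8.84 and 4.11 in WT vehicle livers. The other driven genes averaged 7.26 (*Per2*), 7.74 (*Per3*) and 8.15 (*Nr1d2*) in FXRKO vehicle livers, against 7.41, 7.38 and 8.19 in WT vehicle livers. Without WT vehicle replicates 5 and 6, *Nr1d2* also passed (-0.23 ± 0.07, limma adjusted p = 0.017), where 28.9% of all genes did. The comparisons of genotype under OCA and under vehicle set different arrays against each other, but share the fit's estimate of spread. *Cry1* alone was called in both. With the code number as a block it was not called under OCA (-0.56 ± 0.38, limma adjusted p = 0.39).

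Genotype also went with some cell type markers. For the counts below, 30.7% of all genes were called under OCA and 27.5% under vehicle. Kupffer cell markers (4 of 5 higher in FXRKO under OCA, 3 of 5 under vehicle) averaged 8.44 to 9.44 in FXRKO OCA livers and 8.41 to 8.71 in FXRKO vehicle livers, against 7.39 to 8.76 in WT OCA livers and 7.55 to 8.56 in WT vehicle livers on the log2 scale. All 4 stellate cell markers were called higher in FXRKO under both conditions, and averaged 8.71 to 8.94 and 8.66 to 9.02 in FXRKO OCA and vehicle livers, against 7.76 to 8.25 and 8.01 to 8.33 in WT OCA and vehicle livers. Hepatocyte markers were called lower in FXRKO (5 of 5 under OCA, 2 of 5 under vehicle), with median changes of -0.15 and -0.10. Of 4 cholangiocyte markers, 2 were called higher under vehicle and 0 under OCA. Of 4 sinusoidal endothelium markers, 1 was called lower under vehicle and 0 under OCA, and 0 of 3 measured neutrophil markers were called in either. Acute phase genes averaged 11.43 to 11.92 and 11.30 to 11.78 in FXRKO OCA and vehicle livers, and 8.61 to 11.92 and 8.78 to 12.39 in WT OCA and vehicle livers. Their part in the clock gene changes was not tested, and in whole liver fewer cells of a type and less RNA per cell cannot be told apart.

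OCA itself gave no called member in either genotype. In FXRKO livers 0 of 8 members passed, where 0.0159% of all genes passed, and the 3 activators had an unadjusted limma p under 0.05, as 5.14% of all genes did. *Npas2* averaged 5.07 ± 0.48 in FXRKO OCA livers and 4.24 ± 0.18 in FXRKO vehicle livers (SD, n = 6 each), a log2 change of 0.83 ± 0.25 (SE, limma adjusted p = 0.76). *Arntl* changed by 0.70 ± 0.27 (adjusted p = 0.90) and *Clock* by 0.31 ± 0.14 (adjusted p = 0.93). The 5 driven genes had negative changes between -0.46 (*Per3*) and -0.07 (*Nr1d2*); of these *Cry1* averaged 5.11 ± 0.34 in FXRKO OCA livers and 5.39 ± 0.32 in FXRKO vehicle livers. Within number 9 alone, 6 OCA livers against 2 vehicle livers, the changes were 0.62 ± 0.28 for *Npas2*, 0.48 ± 0.31 for *Arntl* and 0.19 ± 0.13 for *Clock*, with no member and no other gene called (0% of all genes, and 0% with the number as a block).

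In WT livers 0 of 8 members passed, where 0.0691% of all genes passed, and 0 had an unadjusted limma p under 0.05, as 9.47% of all genes did. The activators averaged 4.57 ± 0.27 (*Arntl*), 3.86 ± 0.24 (*Npas2*) and 8.72 ± 0.27 (*Clock*) in WT OCA livers, against 5.06 ± 0.80, 4.11 ± 0.76 and 8.84 ± 0.36 in WT vehicle livers (SD, n = 6 each). The period genes averaged 8.54 ± 0.19 (*Per1*), 7.82 ± 0.47 (*Per2*) and 7.81 ± 0.33 (*Per3*) in WT OCA livers, against 8.37 ± 0.49, 7.41 ± 0.46 and 7.38 ± 1.14 in WT vehicle livers. *Cry1* averaged 5.98 ± 0.33 in WT OCA livers and 6.14 ± 0.30 in WT vehicle livers. *Nr1d2* averaged 8.38 ± 0.13 in WT OCA livers and 8.19 ± 0.33 in WT vehicle livers. The WT vehicle SD was the larger for all of these but *Per2* and *Cry1*.

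The WT values turned on WT vehicle replicates 5 and 6. With the code number as a block, the comparison was between the 6 WT OCA livers and those 2 alone, and 3 members passed, where 3.54% of all genes did: *Arntl* at -1.39 ± 0.29 (limma adjusted p = 0.010), *Per3* at 1.78 ± 0.26 (0.0020) and *Nr1d2* at 0.58 ± 0.10 (0.0045). Fitted on the number 5 arrays alone, the changes were the same and no member passed (adjusted p = 0.14 for *Arntl* and *Per3*, 0.20 for *Nr1d2*), where 0.0266% of all genes did. With both livers left out, a choice made after seeing the data, WT OCA livers differed from the other 4 WT vehicle livers by -0.04 ± 0.22 for *Arntl*, -0.25 ± 0.19 for *Per3* and 0.00 ± 0.07 for *Nr1d2*. With the block and without replicate 6, WT OCA livers were set against replicate 5 alone, which is taken to vary like the other groups and has the highest *Npas2* of all livers. *Arntl* (-1.83, limma adjusted p = 0.027) and *Npas2* (-1.75, limma adjusted p = 0.016) passed there, where 0.409% of all genes did.

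**Figure D3:**
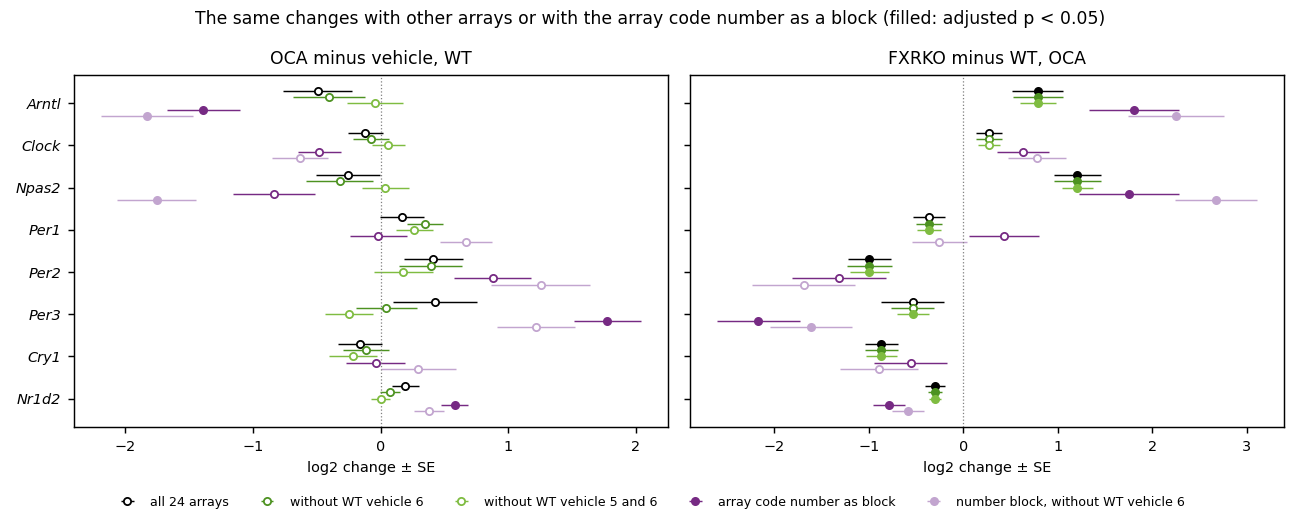
Log2 change ± SE of each clock gene for OCA minus vehicle in WT livers and for FXRKO minus WT under OCA, with all 24 arrays, without WT vehicle replicate 6, without replicates 5 and 6, with a block for the array code number, and with that block but without replicate 6; filled points passed an adjusted p of 0.05. In WT livers the change of *Per3* runs between -0.25 without both livers and 1.78 with the block.

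The OCA changes in the 2 genotypes were then set against each other. No member and no gene passed an adjusted p of 0.05 for the difference between genotypes (0% of all genes, limma), and 4 of 8 members had an unadjusted p under 0.05, as 6.06% of all genes did. The difference, FXRKO minus WT, was 1.19 ± 0.38 for *Arntl* (adjusted p = 0.57), 1.08 ± 0.35 for *Npas2* (0.62), 0.43 ± 0.19 for *Clock* (0.78) and -0.84 ± 0.33 for *Per2* (0.72). With the code number as a block *Per3* passed (-1.98 ± 0.37, adjusted p = 0.042, where 0.181% of all genes passed), with *Arntl* just outside (1.87 ± 0.41, adjusted p = 0.056). Without WT vehicle replicates 5 and 6 the difference was 0.74 ± 0.29 for *Arntl* and -0.22 ± 0.25 for *Per3*, and 0 members passed, where 0.0106% of all genes did. With the block and without replicate 6, *Npas2* passed (2.37 ± 0.39, limma adjusted p = 0.019), where 0.0638% of all genes did; the WT side of that value again rests on replicate 5 alone, with the spread taken from the other groups.

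Several clock genes were among the most variable genes between mice of the same group. The pooled SD within groups was 0.63 on the log2 scale for *Per3* (rank 65 of 18820 genes), 0.51 for *Arntl* (rank 138), 0.47 for *Npas2* (rank 199) and 0.44 for *Per2* (rank 262), against 0.17 for the median gene. *Per1* and *Cry1* had 0.32 each, *Clock* 0.25 and *Nr1d2* 0.19. Without WT vehicle replicate 6 the SD was 0.43 for *Per3* and 0.13 for *Nr1d2*, and 0.51 for *Arntl* and 0.48 for *Npas2*. Between the lowest and the highest of all 24 livers the signal differed 8.11-fold for *Per3*, 4.75-fold for *Per2*, 4.49-fold for *Arntl*, 4.16-fold for *Npas2*, 3.39-fold for *Cry1*, 2.59-fold for *Per1*, 2.02-fold for *Clock* and 1.98-fold for *Nr1d2*. Without WT vehicle replicate 6 it was 3.74-fold for *Per3*, less than for *Per2*, *Arntl* and *Npas2*, 1.98-fold for *Per1* and 1.55-fold for *Nr1d2*.

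Mice that lay above their group's mean in *Arntl* tended to lie above it in the other activators and below it in most driven genes. Over 24 arrays, with group means removed, deviations in *Arntl* correlated with those in *Npas2* at 0.79 and in *Clock* at 0.78, and with *Per2* at -0.72 and *Per3* at -0.71. By size these ranked 19, 23, 61 and 79 of 18819 genes. *Cry1* (-0.42), *Nr1d2* (-0.37) and *Per1* (-0.24) followed less closely. Among the other pairs the size was greatest for *Clock* with *Per2* (-0.82), and *Per2* and *Cry1* moved together (0.69). By Spearman correlation with *Arntl*, *Npas2* stood at 0.67 (rank 164.5), *Clock* at 0.81 (rank 25), *Per2* at -0.78 (rank 45) and *Per3* at -0.84 (rank 11). WT vehicle replicate 5 lay far above its group mean in *Arntl* (6.40 against 5.06) and *Npas2* (5.61 against 4.11). The part of that liver in these correlations was not tested. The points share array processing and, in part, the code number, and these correlations are given as a description.

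FXRKO OCA livers show part of the pattern within a single group and number. Replicates 3 and 4 had the lowest *Arntl* of the group (4.78 and 4.74), the lowest *Npas2* (4.62 and 4.38) and the highest *Per2* (7.03 and 7.75). Replicate 2, with the highest *Arntl* (6.05), had *Per2* at 6.60 and *Per3* at 7.00. It did not follow in every member. Its *Npas2*, at 5.02, was below the group mean of 5.07, and its *Cry1*, at 5.35, was above the group mean of 5.11. WT vehicle replicate 5 had the highest *Arntl*, *Clock* and *Npas2* of its group and its lowest *Per1*, *Per2* and *Cry1*. WT vehicle replicate 6 did not follow: it combined high *Arntl* (5.52) and low *Per3* (5.47) with *Npas2* at 3.77 and the highest *Per1* of all livers (9.24).

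Taking deviations within each code number as well, the correlation with *Arntl* was 0.71 for *Npas2*, 0.65 for *Clock*, -0.65 for *Per2*, -0.31 for *Per3* and 0.43 for *Nr1d2*, the last with its sign turned. Without WT vehicle replicate 6 it was 0.86 for *Npas2*, -0.83 for *Per3* and -0.52 for *Per1*. Over all 24 arrays, with group means removed, the probe set shared by Sphk2 and Dbp had a correlation of -0.61 with *Arntl*. The brighter one shared by Nr1d1 and Thra had 0.49, and the dimmer one (10381006) had 0.31. Both of these were positive, unlike the opposite timing of Nr1d1 and Arntl given above, and neither signal belongs to Nr1d1 alone.

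**Figure D4:**
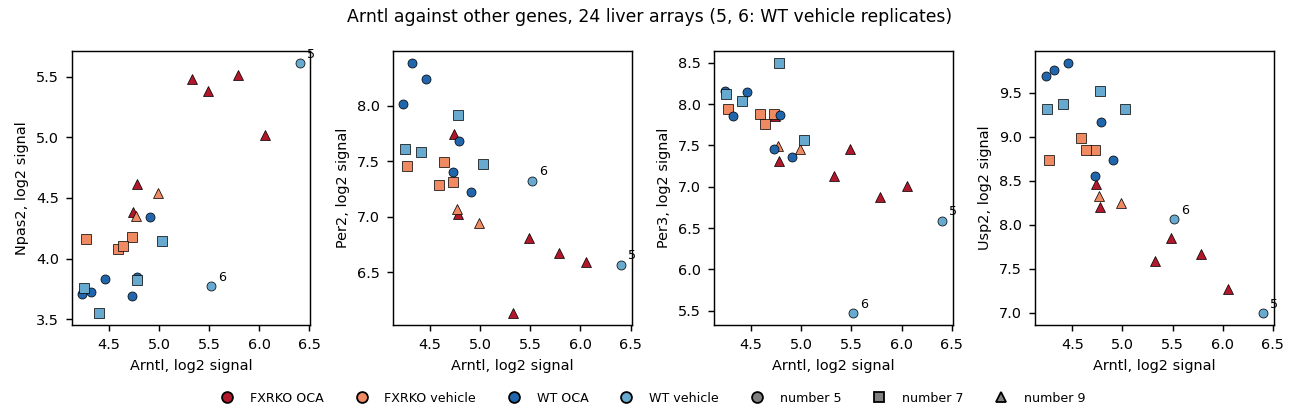
Log2 signal of *Arntl* (x axis) against *Npas2*, *Per2*, *Per3* and *Usp2* (y axes) in 24 livers, with group by colour and array code number by shape; 5 and 6 mark WT vehicle replicates 5 and 6. Livers with high *Arntl* sit high in *Npas2*, except replicate 6, and low in *Per2*, *Per3* and *Usp2*.

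Outside the set, the gene most like *Arntl* by size of correlation was *Usp2* (-0.87), a deubiquitinase gene known as a clock output. Its signal was 7.27, 7.76 and 8.46 (lowest, median, highest) in FXRKO OCA livers, 8.25, 8.79 and 8.99 in FXRKO vehicle livers, 8.55, 9.43 and 9.83 in WT OCA livers and 7.00, 9.31 and 9.52 in WT vehicle livers, so that every FXRKO OCA liver was below every WT OCA liver (-1.45 ± 0.33, limma adjusted p = 0.0014). The other 4 genes with the most negative correlation were *Riok2* (-0.86), *Coq10b* (-0.86), *Trak1* (-0.84) and *Maco1* (-0.83). The 5 most positive were *Ubxn1* (0.86), *Smagp* (0.86), *Kif2c* (0.84), *Clpx* (0.81) and *Gpc4* (0.80). The order depended on the setting. With deviations taken within each code number as well, these genes ranked between 1 (*Riok2*, -0.83) and 341 (*Gpc4*, 0.59) of 18819, with *Usp2* at 18 (-0.73). Without WT vehicle replicate 6, *Riok2* ranked 1 (-0.90) and *Usp2* 5 (-0.87). Of the 9 genes named here beside *Usp2*, 4 were called for FXRKO against WT under OCA (limma), where 30.7% of all genes were called. *Coq10b* (-0.85 ± 0.19, adjusted p = 0.00093), which encodes a coenzyme Q binding protein, and *Trak1* (-0.35 ± 0.07, adjusted p = 0.00027), an adaptor for mitochondrial transport, were lower and *Kif2c* (0.61 ± 0.23, adjusted p = 0.046), a mitotic kinesin gene, was higher in FXRKO OCA livers. *Gpc4*, a cell surface proteoglycan gene, was lower there (-0.69 ± 0.06, adjusted p = 2.5e-09) although its correlation with *Arntl*, which was higher, is positive; it was also lower in FXRKO under vehicle (-0.68 ± 0.06, adjusted p = 3.3e-09).

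Further genes of the clock were read from a list of 20, of which 18 were measured. FXRKO against WT under OCA, 1 was called higher and 8 lower (median change -0.19, beside -0.02 for all genes), where 17.4% of all genes were called higher and 13.3% lower. *Csnk1e*, a kinase gene whose product marks PER proteins for decay, averaged 7.56 ± 0.12 in FXRKO OCA livers and 6.83 ± 0.22 in WT OCA livers (SD, n = 6 each), a change of 0.72 ± 0.10 (limma adjusted p = 1.6e-06). *Bhlhe41*, a repressor that competes at E-boxes, changed by -0.98 ± 0.20 (adjusted p = 0.00043), *Rora*, an activator of *Arntl*, by -0.44 ± 0.09 (0.00041), and *Cry2* by -0.37 ± 0.07 (0.00026). Without WT vehicle replicate 6 the counts were 2 higher and 8 lower, where 33.8% of all genes were called. With the code number as a block they were 1 higher (*Csnk1e*) and 3 lower, where 12.4% of all genes were called. *Cry2* and *Rora* were among those lower, and *Bhlhe41* was no longer called (-1.31, limma adjusted p = 0.074).

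Under vehicle 4 of the 18 were called higher and 1 lower in FXRKO livers (median -0.01, beside -0.03 for all genes), a share close to the 27.5% of all genes that were called. *Csnk1e* gave nearly the same change there, 0.72 ± 0.10 (limma adjusted p = 2.1e-06), and *Fbxw11*, a ubiquitin ligase gene, 0.19 ± 0.06 (0.019). *Nfil3*, a repressor at D-boxes, changed by -0.95 ± 0.31 (0.025), and *Fbxl21*, whose product binds CRY proteins, by 0.32 ± 0.12 (0.040). Without WT vehicle replicate 6, which had the group's highest *Nfil3* (8.77), the counts were 2 higher and 2 lower, *Nfil3* changed by -0.55 ± 0.20 (0.036) and *Fbxl21* was no longer called (0.26 ± 0.12, adjusted p = 0.097). The counts became 1 higher (*Csnk1e*) and 2 lower with the code number as a block, where 22.7% of all genes were called. Neither OCA comparison nor the difference between them called any of the 18 over all arrays. The block sets WT OCA livers against WT vehicle replicates 5 and 6 alone. With it 1 was called higher and 1 lower for OCA in WT livers, 0 for OCA in FXRKO livers and 1 for the difference. The shares of all genes called with the block were 3.54%, 0% and 0.181%, in that order.

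Of 19 listed liver output genes of the clock, 18 were measured, and FXRKO against WT under OCA 4 were called higher and 8 lower (median -0.27), where 30.7% of all genes were called. *Elovl3*, a fatty acid elongase gene, changed by -7.01 ± 0.29 (limma adjusted p = 1.7e-15), *Pck1*, of glucose production, by -1.37 ± 0.13 (7.5e-09), *Tspan4*, a tetraspanin gene, by -0.72 ± 0.14 (0.00018) and *Cyp2a5*, a cytochrome P450 gene, by 0.87 ± 0.11 (5.4e-07). Under vehicle, where 27.5% of all genes were called, 3 were higher and 5 lower (median -0.22): *Elovl3* changed by -7.48 ± 0.29 (limma adjusted p = 6.0e-16), *Pck1* by -1.23 ± 0.13 (5.7e-08), *Cyp2a5* by 0.88 ± 0.11 (5.6e-07) and *Cyp7a1*, which encodes the first enzyme of the main bile acid pathway and is repressed through FXR, by 1.23 ± 0.35 (0.0091). With the code number as a block the counts were 2 higher and 6 lower under OCA, where 12.4% of all genes were called. Under vehicle they were then 2 higher and 3 lower, where 22.7% of all genes were called. Over all arrays the OCA comparisons called 0 of the 18 in either genotype. With the block 2 were called higher and 2 lower for OCA in WT livers, where 3.54% of all genes were called. The block called 0 for OCA in FXRKO livers, where 0% of all genes were called, and 2 for the difference, where 0.181% were.

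Genes that answer to glucocorticoid hormone and to body temperature, both of which carry time of day to the liver, were also read. Of 10 measured glucocorticoid-responsive genes, 3 were called higher and 2 lower in FXRKO under OCA, where 30.7% of all genes were called, led by *Sgk1*, a kinase gene (0.93 ± 0.15, limma adjusted p = 3.5e-05), *Klf9*, a transcription factor gene (-0.55 ± 0.10, 0.00018), *Lcn2*, also an acute phase gene (2.88 ± 0.72, 0.0028), and *Tsc22d3* (-0.57 ± 0.17, 0.012). Under vehicle, where 27.5% of all genes were called, 2 were higher, *Sgk1* (0.98 ± 0.15, limma adjusted p = 2.3e-05) and *Lcn2* (3.28 ± 0.72, 0.00094), and 2 lower, *Klf9* (-0.63 ± 0.10, 4.1e-05) and *Fkbp5* (-0.90 ± 0.30, 0.027), a chaperone gene. *Fkbp5* was highest in WT vehicle replicate 6 (10.78), and without that liver its change was -0.59 ± 0.24 (adjusted p = 0.074). With the code number as a block, 2 were higher (*Sgk1* and *Lcn2*) and 0 lower under OCA, where 12.4% of all genes were called. The list's median change turned to 0.50 there, beside -0.31 over all arrays. Under vehicle the block called 2 higher and 1 lower, where 22.7% of all genes were called. Of 10 measured temperature-linked genes, 1 was called, *Hsp90aa1*, a heat shock protein gene, at 0.51 ± 0.17 in FXRKO under OCA (limma adjusted p = 0.022), and 0 under vehicle, against the same shares of all genes. Without WT vehicle replicate 6 the counts were 2 under OCA, where 33.8% of all genes were called, and 1 under vehicle. With the code number as a block they became 3 under OCA (2 higher and 1 lower) and 1 under vehicle. The block also called 2 for OCA in WT livers (1 higher and 1 lower). The shares of all genes called with the block were 12.4%, 22.7% and 3.54%, in that order.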

How the data were processed

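The values were the log2 signals that the authors deposited for 24 whole-transcript arrays, with no further scaling. They were made with RMA, per the submitters' processing notes; the sources used here state neither its version nor the log base (values ran between 0.87 and 13.6, array medians between 4.57 and 4.65). Per the labels' protocols, RNA from snap-frozen liver was turned into whole-transcript cDNA and labelled with biotin. Of 35556 probe sets, 21218 carried 1 gene symbol, 1881 several and 12457 none. Of those with 1 symbol, 21185 had a gene number found in a RefSeq table (GRCm38.p6) and took the symbol given there, changed or not. The probe set with the highest mean per symbol left 18820 genes. No genes were left out for low signal, so dim genes may sit near background, and the number of arrays limits precision.

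With limma 3.58.1 in R 4.3.3, 1 mean per group was fitted (20 residual and 4.46 prior degrees of freedom), with Benjamini-Hochberg adjustment over all genes and calls at adjusted p under 0.05. Changes are log2 ± SE. The fit was tested on simulated data. Promoter windows were searched, and figures drawn, with Python 3.11.15 and matplotlib 3.10.9. The named genes were the members, Nr1h4 and Nr0b2, the 5 genes each way with the highest or lowest correlation with Arntl, and up to 4 called genes per list and comparison by smallest p; predicted genes were skipped. Members and lists were chosen with earlier results of these data known. The mice are separate animals per the labels, 1 array each. Alternatives were array centring, quantile normalization, array weights, a filter at the median gene, robust eBayes with a trend, a fit to the 2 groups alone, the code number or letter as a block, 1 code number alone, arrays with names ending in _2 left out, a replicate block, all probe sets, their mean per gene, each array left out in turn, and, chosen after the data were seen, WT vehicle replicates 5 and 6 left out and the lists without replicate 6. Same replicate numbers did not pair the mice: of 36 same-number pairs of arrays, 2 had deviations that correlated above 0.1.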

Additional observations from a re-analysis of the deposited data

Results flagged for a closer look

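Of the members' readings, 2 stood far from the other 5 of their group, in 32 groups examined, where chance marks about 1 in 20 groups. Npas2 in WT OCA replicate 4 read 4.34 on the log2 scale, and the other 5 livers of that group read 3.70 to 3.85; the same liver had the highest Arntl (4.91), Clock (9.11) and Nr1d2 (8.59) and the lowest Per2 (7.22), Per3 (7.36) and Cry1 (5.53) of its group. Npas2 in WT vehicle replicate 5 read 5.61, and the other 5 read 3.55 to 4.15, with the Arntl, Clock, Per1, Per2 and Cry1 readings of that liver at its group's extremes too.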

How the results depend on the processing

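The count of members called for FXRKO against WT under OCA, 5 with all arrays, was 3 among genes at or above the median level (Arntl and Npas2, dimmer than that, were not tested), 3 with the array code letter as a block and 3 without the arrays whose names end in _2, and ran from 3 to 5 when 1 of the 12 FXRKO OCA and WT OCA arrays was left out, with 3 without FXRKO OCA replicate 2 or 6. It was 6 without WT vehicle replicate 6, where 33.8% of all genes were called, against 30.7% with all arrays. It was 6 with array weights, 7 with the 2 groups alone and 7 without WT vehicle replicates 5 and 6. Apart from the fit without replicate 6, the share of all genes called is not given for these settings of the count. A change in members cannot be told there from a general change in calls. The count for FXRKO against WT under vehicle was 1 with all arrays, where 27.5% of all genes were called. It was 2 with arrays centred on their median, 2 within code number 7 alone (24.1% of all genes) and 2 without WT vehicle replicates 5 and 6 (28.9%). It stayed at 1 in all 12 leave-one-out fits. For OCA in WT livers 0 became 3 with the code number as a block and 2 with the block and without WT vehicle replicate 6, and for the difference of OCA effects 0 became 1 and 1. Per1 reversed to 0.43 (adjusted p = 0.52) in FXRKO against WT under OCA with the code number as a block; for these changes the cause was not tested. Arntl lost its call there with centring (adjusted p = 0.056), quantile normalization (0.070), the letter block (0.099) and the arrays ending in _2 left out (0.088), Nr1d2 with the last 2 (0.10 and 0.19) and with the mean of its probe sets (0.055), and Per1 gained one with centring (-0.55, 0.011), array weights (-0.40, 0.033), the 2 groups alone (0.021) and without WT vehicle replicates 5 and 6 (0.032). The replicate block changed no call, with 5 members called for FXRKO against WT under OCA, and the numbers pair no mice. Over the alternatives other than leaving out an array, 137 of 147 counts and medians and 173 of 190 member changes kept direction and side of the threshold or moved little. These totals include counts of 0 and changes far from the threshold, so they do not measure how firm the called changes are. The within-group spread of WT vehicle, with replicates 5 and 6 far from the other 4, limits every comparison with that group.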
